A study of Mus musculus with 18 samples.

Results

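Mab21l2, Vill and Igfbp7 are 3 of the 23418 genes listed in a mouse leukemia RNA-seq series and were chosen by their level under DMSO, which was high mainly in cells transformed by MLL-AF9. All 3 passed the filter used for testing, as did 11238 genes in all. It asked for an RPKM, the read count scaled by gene length and library size, of 1 or more in 3 or more of the 18 libraries. Vill reached that RPKM in 6 libraries, all of MLL-AF9, and Mab21l2 in 8, those of MLL-AF9 and replicates 1 and 2 of MLL-AF1p DMSO. Igfbp7 reached it in 4, all of them DMSO libraries. All 3 genes thus entered the tests through the MLL-AF9 libraries in which they were high.

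The cells were C57BL/6 leukemia cells carrying 1 of 3 fusion constructs, MLL-AF9, MLL-AF6 or MLL-AF1p. Each was cultured for 6 days with 6 µM MI-2-2, which blocks the contact between menin and MLL, or with DMSO alone, and both arms held 0.25% DMSO. There were 3 libraries in each of the 6 groups. All groups carry an MLL fusion, so there is no group of untransformed cells, and the number of independently transformed lines behind a construct is not given in the sources used here, so construct and line cannot be told apart. The replicates are not stated to be separate cultures, so a p-value here speaks of the spread among libraries, part or all of which may be technical.

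MLL fusion proteins join the DNA-binding end of MLL to a partner protein and keep developmental genes such as the Hoxa cluster active in blood progenitors, with menin as the cofactor that tethers them to chromatin. None of the 3 genes is best known from blood. Mab21l2 encodes a protein of the male-abnormal 21 family, needed in the mouse for the eye and the ventral body wall, and described in Xenopus as a modulator of bone morphogenetic protein (BMP) signalling. Vill encodes villin-like protein, a relative of the actin-binding proteins villin and gelsolin. Igfbp7 encodes a secreted protein, made by vessel and stromal cells among others, that resembles the insulin-like growth factor (IGF) binding proteins, binds IGF weakly and is a ligand of the receptor Cd93.

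The 250 bases before the annotated start of each gene are shown to set the 3 promoters side by side, since the genes are high in the same libraries. They come from RefSeq on build GRCm38.p6, which is later than the mm9 build named in the submitters' processing notes, and all 3 genes were matched by symbol. Capitals mark the only matches found to a TATA box (TATAAA), a HOX and PBX site (TGATNNAT), a MEIS site (TGACAG), a MYB site (AACNGNC), a C/EBP site (TTGCNNAA), a PU.1 site (AGAGGAAG) or a RUNX site (TGTGGT), searched on both strands. The Mab21l2 window lies at chr3:86548284-86548533, the Vill window at chr9:119052528-119052777 and the Igfbp7 window at chr5:77408046-77408295, on the minus, plus and minus strand.
Mab21l2: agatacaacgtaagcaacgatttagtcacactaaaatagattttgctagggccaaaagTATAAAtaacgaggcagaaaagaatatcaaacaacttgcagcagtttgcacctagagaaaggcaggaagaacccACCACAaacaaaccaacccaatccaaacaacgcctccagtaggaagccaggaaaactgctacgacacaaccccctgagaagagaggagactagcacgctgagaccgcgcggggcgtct
Vill: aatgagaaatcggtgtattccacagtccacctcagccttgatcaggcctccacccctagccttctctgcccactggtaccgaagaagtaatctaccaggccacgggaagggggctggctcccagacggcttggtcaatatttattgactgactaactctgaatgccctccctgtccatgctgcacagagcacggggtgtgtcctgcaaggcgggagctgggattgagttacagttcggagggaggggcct
Igfbp7: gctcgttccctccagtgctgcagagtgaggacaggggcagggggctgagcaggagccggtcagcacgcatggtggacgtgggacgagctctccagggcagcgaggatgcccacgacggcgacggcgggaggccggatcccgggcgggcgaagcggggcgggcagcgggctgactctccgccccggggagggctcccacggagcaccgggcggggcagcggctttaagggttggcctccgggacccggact
The Mab21l2 window held 1 TATAAA, from −192 to −187 of the start, and 1 RUNX match on the opposite strand, written ACCACA, from −118 to −113. TATAAA is present in 12.4% and the RUNX letters in 14.0% of the 32851 mouse promoter windows of this length. None of the 7 motifs was present in the Vill or Igfbp7 window. The other 5 are present in 7.7% (HOX and PBX), 15.9% (MEIS), 27.7% (MYB), 9.6% (C/EBP) and 3.7% (PU.1) of windows. In base composition the 3 differed: GC content was 46.8% for Mab21l2, 56.4% for Vill and 74.0% for Igfbp7, against a median of 52.4% over all windows. Igfbp7 had 26 CpG pairs and 4 GC boxes (GGGCGG, not in capitals, present in 32.7% of windows), Mab21l2 had 10 CpG pairs and Vill 7, beside a median of 6.

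Depth was 21180926 to 56304997 counted reads per library, deepest in MLL-AF1p. Of 10 markers of myeloid leukemia cells, 8 had a mean over 1 RPKM in all 6 groups. The exceptions were Mpo, at 0.369 and 0.244 RPKM in MLL-AF9 under DMSO and MI-2-2 and 0.185 in MLL-AF6 DMSO, and Meis1, at 0.342 in MLL-AF9 with MI-2-2. Of 14 fibroblast and stroma markers 13 stayed under 1 RPKM in all 18 libraries, the exception being Thy1. So did 9 of 12 endothelial, 6 of 7 erythroid, 5 of 6 B cell, 5 of 6 T cell and 5 of 8 megakaryocyte markers. The megakaryocyte markers summed to 5.6 to 6.6 RPKM in MLL-AF9 DMSO, 1.9 to 2.6 in MLL-AF6 DMSO and 1.7 to 2.8 in MLL-AF1p DMSO. With MI-2-2 these sums were 2.5 to 4.4, 3.4 to 5.1 and 2.4 to 3.0, and their part in the members' values was not tested. With MI-2-2 the summed RPKM of 10 neutrophil markers was 24740 to 28810 in MLL-AF9, against 2870 to 4058 under DMSO, and that of 12 monocyte and macrophage markers 4424 to 5676 against 598 to 1921. Every treated group therefore differed from its controls in markers of maturation as well as in the genes below, and the part of that shift in the members' values was not tested.

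Vill was high in MLL-AF9 cells with and without the inhibitor. Under DMSO the MLL-AF9 libraries stood at 22.5, 27.8 and 28.1 RPKM (mean 26.1 ± 3.12, SD, n = 3), from 2810 to 4579 reads each. With MI-2-2 they stood at 18.8, 17.3 and 18.5 RPKM (18.2 ± 0.767). The treated libraries were all below the DMSO libraries, at 69.7% of the DMSO mean, and all far above every library of the other constructs. In bulk RNA such a difference can reflect less RNA per cell or fewer cells that make it, and these cannot be told apart.

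In MLL-AF6 cells Vill was close to the limit of detection. The DMSO libraries gave 0.0647, 0.00629 and 0.0191 RPKM, which is 11, 1 and 3 reads, and the MI-2-2 libraries 0.0639, 0.00811 and 0.0278 RPKM, or 11, 1 and 4 reads. The 2 groups overlapped and neither was out of the range of a few reads. In MLL-AF1p cells Vill was at 0.174, 0.174 and 0.222 RPKM under DMSO (48 to 61 reads) and at 0.492, 0.404 and 0.407 with MI-2-2 (116 to 146 reads). There the treated libraries were all above the controls, the opposite of MLL-AF9, while staying under 1 RPKM. The order of the 6 groups was thus MLL-AF9 DMSO, MLL-AF9 MI-2-2, MLL-AF1p MI-2-2, MLL-AF1p DMSO and then the MLL-AF6 groups, with no overlap between neighbours except between the 2 MLL-AF6 groups.

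The rule that chose the genes rests on their DMSO level, but they were chosen with earlier results of these data known. The DMSO libraries also enter the spread used by the tests, which come from one fit. Vill and Mab21l2 passed the filter only through MLL-AF9 libraries, so the filter and their calls as higher in MLL-AF9 draw on the same construct. With these limits the constructs were tested against each other on the treated libraries (limma on log2(RPKM + 0.5), one fit of all 18 libraries, Benjamini-Hochberg adjustment over the 11238 genes). On that scale Vill was 35.1-fold higher in MLL-AF9 than in MLL-AF6 with MI-2-2 (log2 difference 5.13, SE 0.09, adjusted p = 2.05e-15). It was 20-fold higher than in MLL-AF1p (4.32, SE 0.09, limma adjusted p = 1.79e-14). The added 0.5 holds these folds down, since the lower groups lie under it. In the order from the highest to the lowest difference, Vill stood in place 1 of 11238 in the first comparison and 2 in the other, and by size in either direction in places 4 and 11. Calls were common in these cells: 43.1% of genes were called in the first comparison, 30.1% as higher in MLL-AF9, and 54.1% and 27.8% in the other. The places, like those of Mab21l2 below, are not independent of the choice of both genes as high in MLL-AF9 under DMSO. In the first comparison 69.8% of the calls were higher in MLL-AF9, a share that was 53.0% with median centring and 54.2% with quantile normalization. Vill was lower in MLL-AF6 than in MLL-AF1p under MI-2-2 (−0.81, SE 0.09, limma adjusted p = 4.1e-06), where 52.5% of genes were called.

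Mab21l2 was the most abundant of the 3 genes in MLL-AF9 DMSO cells and was far lower in the treated ones. The DMSO libraries held 48.1, 49.45 and 58.7 RPKM (mean 52.1 ± 5.79, SD, n = 3; 2889 to 4616 reads). The treated libraries held 4.16, 3.72 and 4.03 RPKM (3.97 ± 0.225; 231 to 310 reads), 13.1 times less. The MLL-AF9 groups were tight, with a coefficient of variation of 11.1% under DMSO and 5.66% with MI-2-2.

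The same gene was low but countable in the other constructs. In MLL-AF6 it was at 0.636, 0.301 and 0.331 RPKM under DMSO (52, 23 and 25 reads) and at 0.0723, 0.0673 and 0 with MI-2-2 (6, 4 and 0 reads). In MLL-AF1p it was at 1.02, 1.06 and 0.893 RPKM under DMSO (118 to 155 reads) and at 0.133, 0.194 and 0.284 with MI-2-2 (19 to 39 reads). The treated libraries lay below the controls without overlap in all 3 constructs, so the 6 groups fell into one order in which no neighbours overlapped: MLL-AF9 DMSO, MLL-AF9 MI-2-2, MLL-AF1p DMSO, MLL-AF6 DMSO, MLL-AF1p MI-2-2, MLL-AF6 MI-2-2. As ratios of mean RPKM, the DMSO level was 9.07 times the treated level in MLL-AF6 and 4.85 times in MLL-AF1p. On log2(RPKM + 0.5) the difference was −3.55 for MLL-AF9, −0.74 for MLL-AF6 and −1.09 for MLL-AF1p, because 0.5 is of the size of the low levels. These are descriptions, since the DMSO libraries chose the gene.

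With MI-2-2, Mab21l2 remained higher in MLL-AF9 than in the other constructs. It was 8.19-fold higher than in MLL-AF6 (log2 difference 3.03, SE 0.13, limma adjusted p = 3.78e-11) and 6.37-fold higher than in MLL-AF1p (2.67, SE 0.13, limma adjusted p = 1.88e-10) on the log2(RPKM + 0.5) scale. Its places from the highest difference down were 13 and 23, and by size in either direction 59 and 84. Mab21l2 was lower in treated MLL-AF6 than in treated MLL-AF1p cells (−0.36, SE 0.13, limma adjusted p = 0.0266). That call rests on few reads, and it ended without MLL-AF6 replicate 3, the library with no read (limma adjusted p = 0.103), or without MLL-AF1p replicate 2 (0.0558) or replicate 3 (0.117). It also ended with no filter (limma adjusted p = 0.0583), with median centring (0.0603) and with quantile normalization (0.239).

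Igfbp7 had the widest spread of the 3 genes among the MLL-AF9 DMSO libraries. The MLL-AF9 DMSO libraries held 41.3, 2.95 and 9.78 RPKM (2149, 152 and 666 reads), a mean of 18 ± 20.4 (SD, n = 3) with a coefficient of variation of 114%. With MI-2-2 the same construct held 0.835, 0.195 and 0.705 RPKM (54, 13 and 35 reads; mean 0.578 ± 0.338). The treated libraries were all below the controls, but the controls among themselves spanned more than a factor of 10.

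The other constructs were near 1 RPKM or below. In MLL-AF6 Igfbp7 was at 2.85, 0.151 and 0.366 RPKM under DMSO (202, 10 and 24 reads) and at 0.292, 0.0777 and 0.616 with MI-2-2 (21, 4 and 37 reads), and the groups overlapped. In MLL-AF1p it was at 0.940, 0.60 and 0.777 RPKM under DMSO and at 0.557, 0.505 and 0.438 with MI-2-2, the latter all lower. The lowest MLL-AF9 DMSO library, at 2.95, was just above the highest MLL-AF6 DMSO library, at 2.85. Below MLL-AF9 DMSO, the other 5 groups overlapped with their neighbours in order of level. Within libraries of the same replicate number the MLL-AF9 level was 14.5, 19.6 and 26.7 times the MLL-AF6 level under DMSO, and 43.9, 4.92 and 12.6 times the MLL-AF1p level.

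Replicate 1 was the highest and replicate 2 the lowest for Igfbp7 in the DMSO group of each construct. Replicate 2 was also the lowest in the treated MLL-AF9 and MLL-AF6 groups. Some markers of other blood cells moved with this and others did not. The 12 monocyte and macrophage markers summed to 1921, 598 and 758 RPKM in MLL-AF9 DMSO replicates 1, 2 and 3, and to 4272, 2123 and 2669 in MLL-AF6 DMSO. In MLL-AF1p DMSO they summed to 713, 843 and 733, with replicate 2 highest. The 10 mast cell and basophil markers summed to 69.95, 16.8 and 19.9 RPKM in MLL-AF9 DMSO and to 35.1, 13.5 and 19.5 in MLL-AF6 DMSO, and 5 of the 10 were at 0 in all 18 libraries. Single genes made up much of both sums: in MLL-AF9 DMSO, Lyz2, the lysozyme gene, was at 883 ± 715 RPKM and Hdc, the histamine-forming enzyme gene, at 20.3 ± 27.5 (SD, n = 3). The 10 neutrophil markers had another order, with replicate 2 highest, at 3281, 4058 and 2870 RPKM in MLL-AF9 DMSO and 2267, 3122 and 2928 in MLL-AF6 DMSO. Their part in the Igfbp7 values was not tested. The stroma and endothelial markers, apart from Thy1, Pecam1, Vwf and Egfl7, stayed under 1 RPKM in every library. The stroma sums, mostly Thy1, had the Igfbp7 order in MLL-AF9 DMSO (7.09, 2.61 and 4.37) and MLL-AF6 DMSO (1297, 704 and 1059). In MLL-AF1p DMSO they did not (670, 646 and 625). Egfl7 was at 8.28 RPKM in MLL-AF9 DMSO, 2.43 with MI-2-2, and 1.18 and 2.86 in MLL-AF6 and MLL-AF1p DMSO. Pecam1 was at 11.1, 61.0 and 81.5 in these DMSO groups, and Vwf at 1.21, 0.501 and 0.487. Their part was not tested either.

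Under MI-2-2 no difference in Igfbp7 between constructs passed the test. The log2 difference was 0.38 between MLL-AF9 and MLL-AF6 (95% interval −1.08 to 1.84, limma adjusted p = 0.684). It was 0.06 between MLL-AF9 and MLL-AF1p (−1.40 to 1.52, limma adjusted p = 0.952) and −0.32 between MLL-AF6 and MLL-AF1p (−1.78 to 1.14, limma adjusted p = 0.711). The sign of the MLL-AF9 against MLL-AF1p difference turned without MLL-AF9 MI-2-2 replicate 1 (−0.13) or replicate 3 (−0.05). These intervals use a spread that the DMSO replicates widen, and they leave room for a difference of more than 2-fold in either direction. The wide spread entered through the shared fit: the SE was 0.69 for Igfbp7, against 0.13 for Mab21l2 and 0.09 for Vill.

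**Figure D1:**
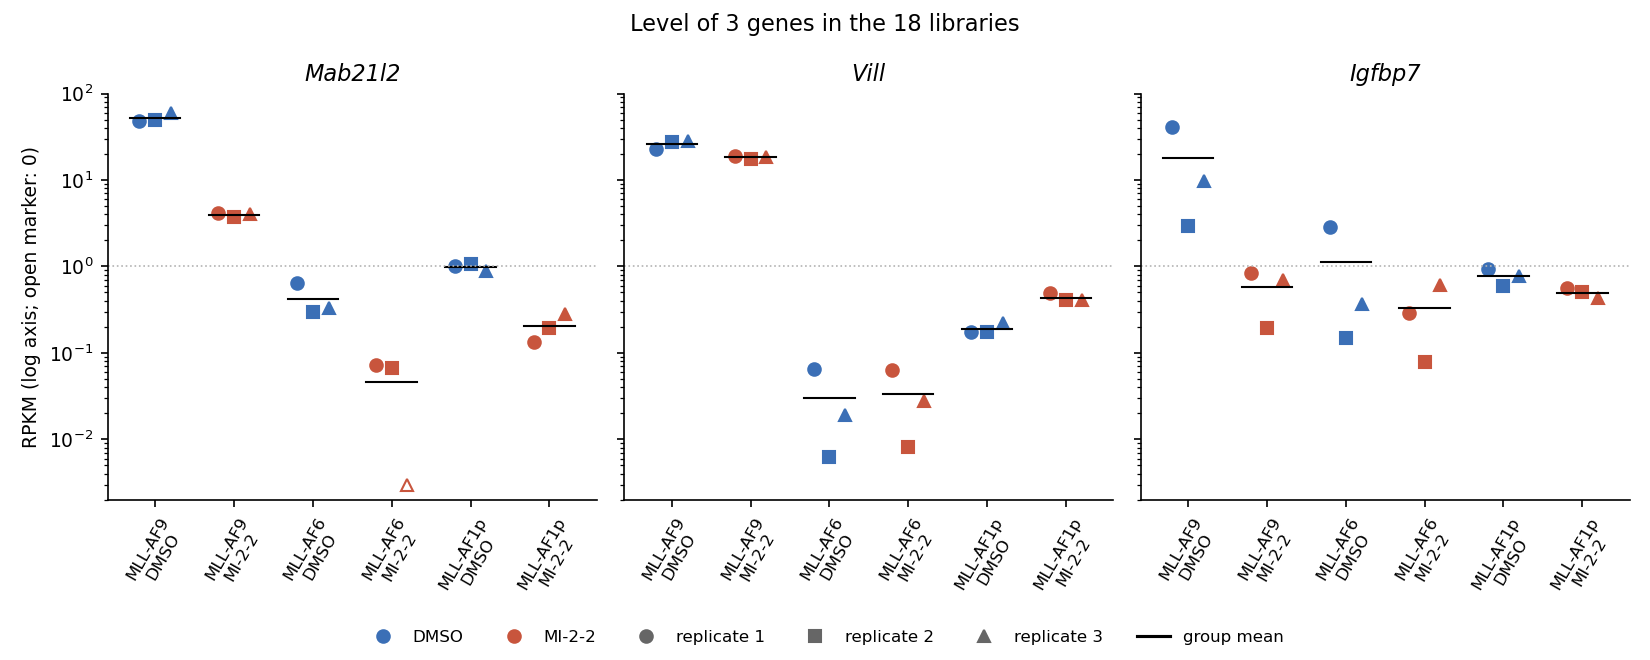
RPKM of Mab21l2, Vill and Igfbp7 in each of the 18 libraries on a log axis, with DMSO in blue, MI-2-2 in red, a marker shape per replicate number, a black line at each group mean and an open marker for the library at 0. In MLL-AF9, Vill goes from a mean of 26.1 under DMSO to 18.2 with MI-2-2, Mab21l2 from 52.1 to 3.97, and Igfbp7 from 3 scattered libraries at 41.3, 2.95 and 9.78 to a mean of 0.578.

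To place the 3 genes among others with the same starting pattern, genes were listed whose MLL-AF9 DMSO mean was at least 5 RPKM and at least 4-fold the mean of both other DMSO groups, on RPKM + 0.5. There were 41 such genes. By the ratio to the higher of the other groups, Psma8, a proteasome subunit gene of the testis, led with 40.6, followed by Vill with 38.6 and Mab21l2 with 35.3. Dkkl1 (19.9), a secreted protein gene known from testis, Zfp783 (15.9), a zinc finger gene, and Cda (15.7), the cytidine deaminase gene, came next, and Igfbp7 was in place 9 with 11.4. In the scatter of its MLL-AF9 DMSO libraries Igfbp7 was far beyond the usual for this set, whose median coefficient of variation was 23.3%. It was not alone in this: with 114% it stood in place 3, after Hdc (136%) and S100a4 (133%), and Spp1 (97.6%) and Fam167b (96.3%) came next.

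With MI-2-2 the ratios of these genes were lower, with a median of 3.38 against 6.51 under DMSO, a comparison in which part of the difference comes from choosing genes by their DMSO ratio. In that order Vill came first with 20.02, Psma8 next with 19.03, Mab21l2 was in place 8 with 6.35 and Igfbp7 in place 37 with 1.08. Of the 41 genes, 32 (78.0%) were called higher in MLL-AF9 than in both other constructs under MI-2-2, beside 16.0% of all genes tested. That share is not a like background, since the 41 were picked as high in MLL-AF9 under DMSO. Of 1840 genes called higher in MLL-AF9 in both comparisons under DMSO, 954 were also called so under MI-2-2. The listing used no treated library, but the DMSO libraries enter the spread of the fit. Vill and Mab21l2 are among the 32 and Igfbp7 is not. Without the libraries of replicate number 1 the count was 34, beside 12.1% of all genes. The median log2 difference between treated and control MLL-AF9 cells was −0.65 in the set and 34 of the 41 had a lower mean with MI-2-2. Mab21l2, at −3.55, had the largest drop of the set on log2(RPKM + 0.5), Igfbp7, at −3.46, came next, and Vill, at −0.50, was in place 25. As a ratio of mean RPKM the order of these was the other way, with the DMSO level 31.1 times the treated level for Igfbp7 and 13.1 times for Mab21l2, as it was with a pseudocount of 0.1 (−4.15 and −3.68). The Igfbp7 difference was −2.52 without MLL-AF9 DMSO replicate 1 and −4.32 without DMSO replicate 2.

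**Figure D2:**
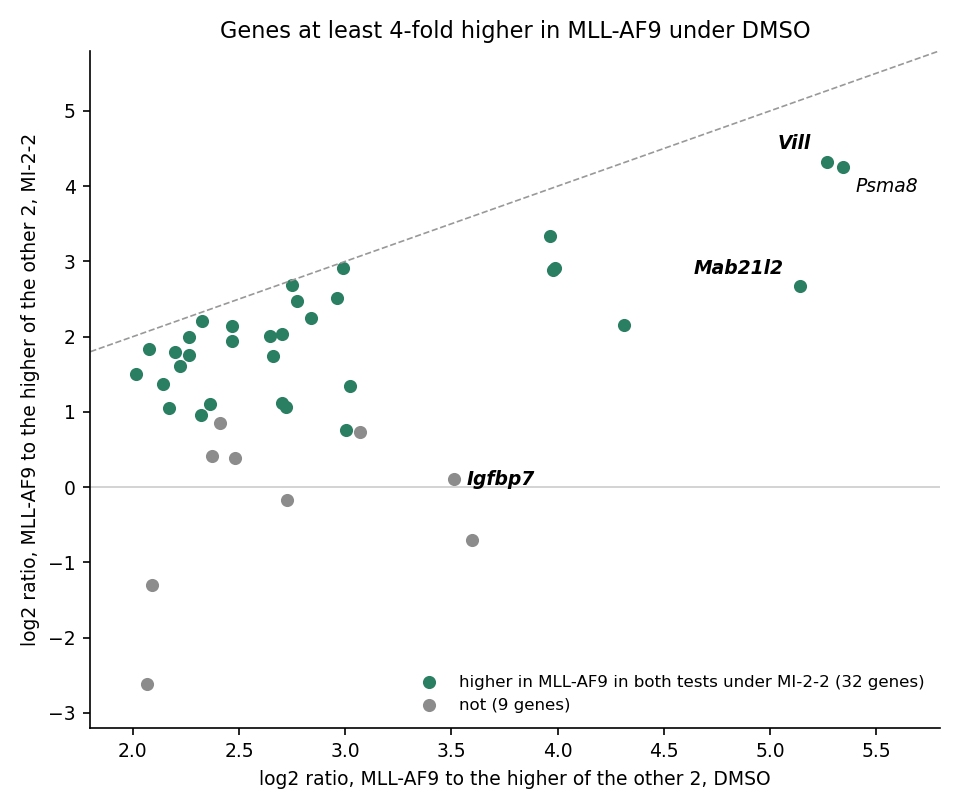
Log2 ratio of MLL-AF9 to the higher of the other 2 constructs, on RPKM + 0.5, under DMSO (x axis) and with MI-2-2 (y axis) for the 41 genes at least 4-fold higher in MLL-AF9 under DMSO, with the dashed line marking equal ratios. The 32 genes called higher in MLL-AF9 in both tests under MI-2-2 are green and the other 9 grey; Vill and Psma8 keep the highest ratios with MI-2-2 (20.02 and 19.03), Mab21l2 is at 6.35 and Igfbp7, at 1.08, lies near the line of equal levels.

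None of the other genes tested in the Mab21 and villin families was called higher in MLL-AF9 than in both other constructs under DMSO, where 16.4% of all genes were. In the Mab21 family, 4 of 6 genes stayed under 0.1 RPKM in all 18 libraries, among them Mab21l3, and the only other member to pass the filter was Mb21d1, the gene of the DNA sensor cGAS. Mb21d1 was lower in MLL-AF9 than in MLL-AF6 (−0.41, limma adjusted p = 7.14e-05) and MLL-AF1p (−0.53, limma adjusted p = 4.13e-06) under DMSO, where 53.6% and 65.1% of genes were called. With MI-2-2 it rose in MLL-AF9, from 5.0 to 9.93 RPKM (0.92, limma adjusted p = 1.13e-08), and in MLL-AF1p (0.42, limma adjusted p = 9.03e-05), and did not pass in MLL-AF6 (−0.03, limma adjusted p = 0.747). Of all genes, the comparison of MI-2-2 with DMSO called 56.4% in MLL-AF9 cells, 57.0% for MLL-AF6 and 45.4% for MLL-AF1p. Of the 11238 genes, 3203 rose and 3136 fell in MLL-AF9, 2025 rose and 4377 fell in MLL-AF6, and 2150 rose and 2953 fell in MLL-AF1p.

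Of the villin and gelsolin family, 5 genes beside Vill passed the filter, and villin itself, Vil1, stayed under 1 RPKM in every library. With MI-2-2, 3 of the 5 rose and 1 fell in MLL-AF9 (median 0.41, against 0 over all genes), 2 rose and 2 fell in MLL-AF6 (median −0.11, against −0.16), and 2 rose and 1 fell in MLL-AF1p (median 0.03, against −0.06). Capg, an actin capping protein of macrophages, rose in each construct. MLL-AF9 cells went from 9.53 to 53.2 RPKM (2.42), MLL-AF6 cells from 6.68 to 58.5 (3.04) and MLL-AF1p cells from 8.96 to 30.3 (1.70; limma adjusted p = 2.75e-09, 1.69e-10 and 3.19e-07). Svil, the supervillin gene, rose from 8.95 to 21.9 RPKM in MLL-AF9 (1.24) and less in MLL-AF6 (0.36) and MLL-AF1p (0.45; limma adjusted p = 6.59e-10, 0.000398 and 6.89e-05). Under DMSO, Svil and Flii, a gelsolin relative that binds nuclear receptors, did not pass as different between MLL-AF9 and MLL-AF1p (0.01 and −0.12; limma adjusted p = 0.91 and 0.122). Against MLL-AF6, Flii was lower in MLL-AF9 (−0.47, limma adjusted p = 3.15e-05) and Svil did not pass (0.07, limma adjusted p = 0.425). Scin, the scinderin gene, had a construct pattern of its own: it was at 8.98 RPKM in MLL-AF6 DMSO cells, where it fell with MI-2-2 (−3.37, limma adjusted p = 2.35e-08), and at 0.0495 in MLL-AF9 and 0.160 in MLL-AF1p.

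Gsn, the gelsolin gene and the most abundant of the family, was lower with MI-2-2 in each construct (−0.49, −0.56 and −0.84; limma adjusted p = 0.0274, 0.0143 and 0.00128). In MLL-AF9 the call ended without DMSO replicate 1 (limma adjusted p = 0.083), DMSO replicate 3 (0.0863) or MI-2-2 replicate 2 (0.113), and with no filter (0.075). In MLL-AF6 it ended without DMSO replicate 1 (limma adjusted p = 0.0691) or MI-2-2 replicate 2 (0.0711). Without all libraries numbered 1, none of the 5 was called lower in MLL-AF9 and 1 in MLL-AF6.

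In the IGF axis, 10 genes beside Igfbp7 passed the filter, of 22 listed, and the binding protein genes Igfbp1, Igfbp2 and Igfbp3 were at 0 in all 18 libraries. With MI-2-2, 5 of the 10 rose and 2 fell in MLL-AF9 (median 0.28, against 0 over all genes). In MLL-AF6 3 rose and 2 fell (−0.14, against −0.16), and in MLL-AF1p 2 rose and 1 fell (−0.06, against −0.06). Over all 11238 genes, 3203, 2025 and 2150 rose in these constructs and 3136, 4377 and 2953 fell. Igfbp4, the abundant binding protein gene of these cells, fell in MLL-AF9 from 247 to 95.2 RPKM (−1.37, limma adjusted p = 1.2e-07) and in MLL-AF6 from 216 to 121 (−0.83, limma adjusted p = 3.05e-05), and did not pass in MLL-AF1p (169 and 162 RPKM; −0.05, limma adjusted p = 0.753). Its level was therefore high in all 3 constructs, unlike that of Igfbp7. Cd93, the receptor gene for Igfbp7 protein, was lower in MLL-AF9 DMSO cells, at 38.1 RPKM, than in MLL-AF6 (87.5; −1.19, limma adjusted p = 6.04e-08) and MLL-AF1p cells (82.6; −1.11, limma adjusted p = 1.04e-07). Cd93 rose with MI-2-2 in MLL-AF9 (0.67, limma adjusted p = 2.62e-05) and MLL-AF6 (0.67, limma adjusted p = 3.06e-05) and did not pass in MLL-AF1p (−0.23, limma adjusted p = 0.0611).

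The receptors of the IGF axis were expressed in every group. Igf1r was at 6.53 RPKM in MLL-AF9 DMSO cells and rose with MI-2-2 (0.36, limma adjusted p = 0.00252), and it fell in MLL-AF6 (−0.60, limma adjusted p = 3.32e-05). Igf2r, which takes up IGF2, fell in MLL-AF9 (−0.78, limma adjusted p = 3.4e-05) and MLL-AF1p (−0.74, limma adjusted p = 0.000102). Insr, the insulin receptor gene, stayed between 11.5 and 14.9 RPKM as a group mean and passed in no construct with MI-2-2 (limma adjusted p from 0.0751 to 0.224). Stc2, a secreted inhibitor of the protease that frees IGF, had group means from 9.05 to 58.1 RPKM and did not pass in any construct with MI-2-2 either (limma adjusted p from 0.0889 to 0.25).

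Of the 14 BMP genes, 6 passed the filter. The ligand genes Bmp2, Bmp6 and Bmp7 and the receptor gene Bmpr1b were at 0 in all 18 libraries. Of the 6, 2 were called higher in MLL-AF9 than in both other constructs under either treatment, as were 8.49% of all genes tested. Bmpr1a, a type I BMP receptor gene, was at 4.46 RPKM in MLL-AF9 DMSO cells, 0.264 in MLL-AF6 (2.67, limma adjusted p = 2.83e-09) and 1.75 in MLL-AF1p (1.13, limma adjusted p = 2.36e-05). With MI-2-2 it was at 5.49, 0.553 and 1.96 RPKM (2.50 and 1.28; limma adjusted p = 8.13e-09 and 1.14e-05). Smad6, an inhibitor of BMP signalling that BMP itself induces in many cells, was at 2.35, 0.0984 and 0.203 RPKM under DMSO (2.22 and 1.98; limma adjusted p = 1.95e-08 and 5.09e-08) and at 2.38, 0.175 and 0.479 with MI-2-2 (2.10 and 1.55; limma adjusted p = 4.91e-08 and 1.25e-06).

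In MLL-AF9 cells, where Mab21l2 was 13.1 times lower with MI-2-2, neither Bmpr1a nor Smad6 passed between MI-2-2 and DMSO. The difference was 0.29 for Bmpr1a (interval −0.06 to 0.64, limma adjusted p = 0.142). For Smad6 it was 0.05 (interval −0.29 to 0.4, limma adjusted p = 0.812). These intervals, set at the level used for Igfbp7 above, leave room for a change in either direction. A link between Mab21l2 and the BMP genes was not tested. Over the 6 genes, 1 rose with MI-2-2 in MLL-AF9 (median 0.14, against 0 over all genes). In MLL-AF6 2 rose (0.17, against −0.16) and in MLL-AF1p 2 (0.24, against −0.06), and none fell in any construct. Of all 11238 genes, 3203, 2025 and 2150 rose in these constructs, and 6 genes are too few to set against that. Without all libraries numbered 1 the MLL-AF9 count was 2. The list's other calls in those constructs, Bmpr1a in MLL-AF6 and Smad6 in MLL-AF1p, had limma adjusted p-values of 0.0257 and 0.0248 and ended when single libraries were left out (up to 0.0872 and 0.0824). The 1 in MLL-AF9 was Bmpr2, the type II receptor gene, which rose from 1.90 to 4.22 RPKM (1.02, limma adjusted p = 0.000153), and which also rose in MLL-AF6 (1.33, limma adjusted p = 1.32e-05). Smad4 (0.15, limma adjusted p = 0.262) and Smad5 (0.12, limma adjusted p = 0.174), the signal-carrying members, did not pass in MLL-AF9, nor did the inhibitor gene Smad7 (−0.03, limma adjusted p = 0.845), which rose in MLL-AF1p (0.71, limma adjusted p = 0.000325).

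**Figure D3:**
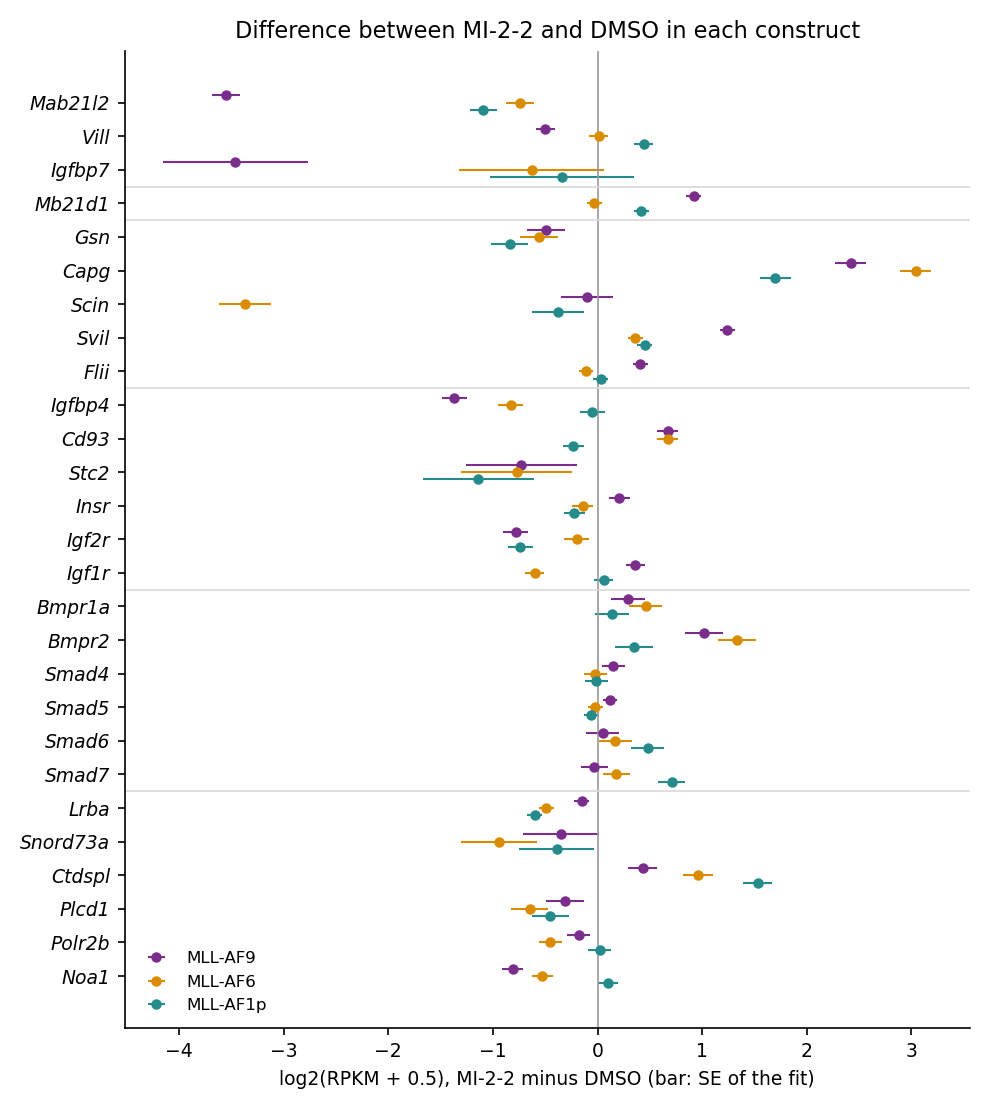
Difference of mean log2(RPKM + 0.5) between MI-2-2 and DMSO in each construct (bars, SE of the fit; 3 libraries per group) for the 3 members, Mb21d1, 5 villin and gelsolin genes, 6 IGF genes, 6 BMP genes and the neighbours tested, in blocks separated by lines. Mab21l2 at −3.55 and Igfbp7 at −3.46 are the lowest MLL-AF9 values shown, and the Igfbp7 bars are the widest of the 3 members; member values are descriptions.

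The genes beside the members on the chromosome were compared next. Mab21l2, a gene of 1 exon, lies inside Lrba, a vesicle traffic gene, on the opposite strand, and shares 62 exon bases with it in the reference annotation. The library kit does not mark the strand, so reads from those bases cannot be assigned. Lrba was at 2.44 RPKM in MLL-AF9 DMSO cells and 2.16 in MLL-AF6 (0.14, limma adjusted p = 0.0866), and did not pass with MI-2-2 in MLL-AF9 (−0.15, limma adjusted p = 0.0597). It fell in MLL-AF6 (−0.49, limma adjusted p = 1.48e-05) and MLL-AF1p (−0.60, limma adjusted p = 3.36e-06). Under MI-2-2 Lrba was higher in MLL-AF9 than in MLL-AF6 (0.48, limma adjusted p = 3.03e-05) and MLL-AF1p (0.23, limma adjusted p = 0.00776), and the latter call ended without the libraries numbered 1 (limma adjusted p = 0.0839). Snord73a, a small nucleolar RNA gene in the same host, passed in neither comparison of MLL-AF9 under DMSO (limma adjusted p = 0.929 and 0.334). On the other side, Dclk2, a doublecortin-like kinase gene, was below the filter, yet its mean was 0.437 RPKM in MLL-AF9 DMSO cells and 0.325 with MI-2-2, and at most 0.0977 in the other 4 groups.

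Vill lies next to Plcd1, a phospholipase C gene on the opposite strand, with 1 base between them. Plcd1 was at 7.72 RPKM in MLL-AF9, 7.94 in MLL-AF6 (0.00, limma adjusted p = 0.99) and 4.88 in MLL-AF1p (0.60, limma adjusted p = 0.00787) under DMSO. Ctdspl, a small phosphatase gene and the host of Mir26a-1, on the other side of Vill, was high in MLL-AF9 as Vill was. It was at 5.29 RPKM in MLL-AF9 DMSO cells, 0.309 in MLL-AF6 (2.84, limma adjusted p = 2.14e-10) and 0.957 in MLL-AF1p (1.99, limma adjusted p = 1.09e-08). With MI-2-2 it was at 7.30, 1.07 and 3.68 RPKM, still higher in MLL-AF9 (2.31 and 0.89; limma adjusted p = 3.12e-09 and 7.9e-05). Ctdspl rose with MI-2-2 in MLL-AF6 (0.96, limma adjusted p = 3.47e-05) and MLL-AF1p (1.53, limma adjusted p = 4.64e-07). In MLL-AF9 it rose by 0.43 (limma adjusted p = 0.0171), a call that ended without DMSO replicate 2 (limma adjusted p = 0.0797), MI-2-2 replicate 1 (0.0821) or replicate 3 (0.0511), with a pseudocount of 0.1 (0.0548) and with quantile normalization (0.0693).

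Igfbp7 shares 85 exon bases with Polr2b, an RNA polymerase II subunit gene on the opposite strand, beyond which lies Noa1, a mitochondrial GTPase gene. Here too reads from the shared bases cannot be assigned. Their part in the Igfbp7 counts, which were only 4 to 69 reads in the treated libraries, was not tested. Polr2b was at 36.5 RPKM in MLL-AF9 DMSO cells, 37.4 for MLL-AF6 and 38.9 for MLL-AF1p and did not pass between MLL-AF9 and either (limma adjusted p = 0.688 and 0.396). Noa1 fell with MI-2-2 in MLL-AF9 (−0.81, limma adjusted p = 6.92e-06) and MLL-AF6 (−0.53, limma adjusted p = 0.000476). The other neighbours of Igfbp7, Pea15b and Mir1187, were listed at 0 in every library.

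The genes whose pattern was most like that of each member were found by Pearson's r of log2(RPKM + 0.5) over the 18 libraries. These values are descriptions, since the libraries fall into groups that share construct and treatment. For Vill they were Cd59a (0.993), a complement inhibitor gene, Mtus2 (0.992), Myrf (0.992), a transcription factor gene of myelinating cells, Ints3 (0.989), of the Integrator complex, and Psma8 (0.988). Cd59a was at 3.64, 5.16 and 5.34 RPKM in MLL-AF9 DMSO and at 2.87, 2.83 and 2.59 with MI-2-2, and no library of the other constructs was above 0.203. Mtus2 likewise had means of 3.10 and 2.67 RPKM in the 2 MLL-AF9 groups and of at most 0.00776 elsewhere.

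For Mab21l2 the closest were Lynx1 (0.986), a modulator of nicotinic receptors, Rfx2 (0.983), a transcription factor gene of cilia and sperm, Shf (0.982), an adaptor gene, Mlxipl (0.982), a glucose-responsive transcription factor gene, and Dap3 (0.977), of the mitochondrial ribosome. Their MLL-AF9 means were 2.48 and 1.07 RPKM under DMSO and MI-2-2 for Lynx1 and 6.42 and 1.67 for Mlxipl. Each was thus lower with MI-2-2 in MLL-AF9, by less than Mab21l2 was.

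For Igfbp7 the values were lower: Fmnl2 (0.935), a formin gene, Cnn3 (0.928), a calponin gene, Capn10 (0.927), Usp54 (0.918) and Ttll1 (0.910), a tubulin-modifying enzyme gene. Their MLL-AF9 DMSO replicates stood in the same order as those of Igfbp7. Fmnl2 was at 28.5, 8.74 and 16.8 RPKM in replicates 1, 2 and 3, Cnn3 at 8.31, 1.95 and 4.61, and Ttll1 at 19.7, 10.1 and 14.1. Between the members themselves r was 0.891 for Mab21l2 and Vill, 0.794 for Mab21l2 and Igfbp7 and 0.563 for Vill and Igfbp7, over libraries that include those that chose the genes.

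**Figure D4:**
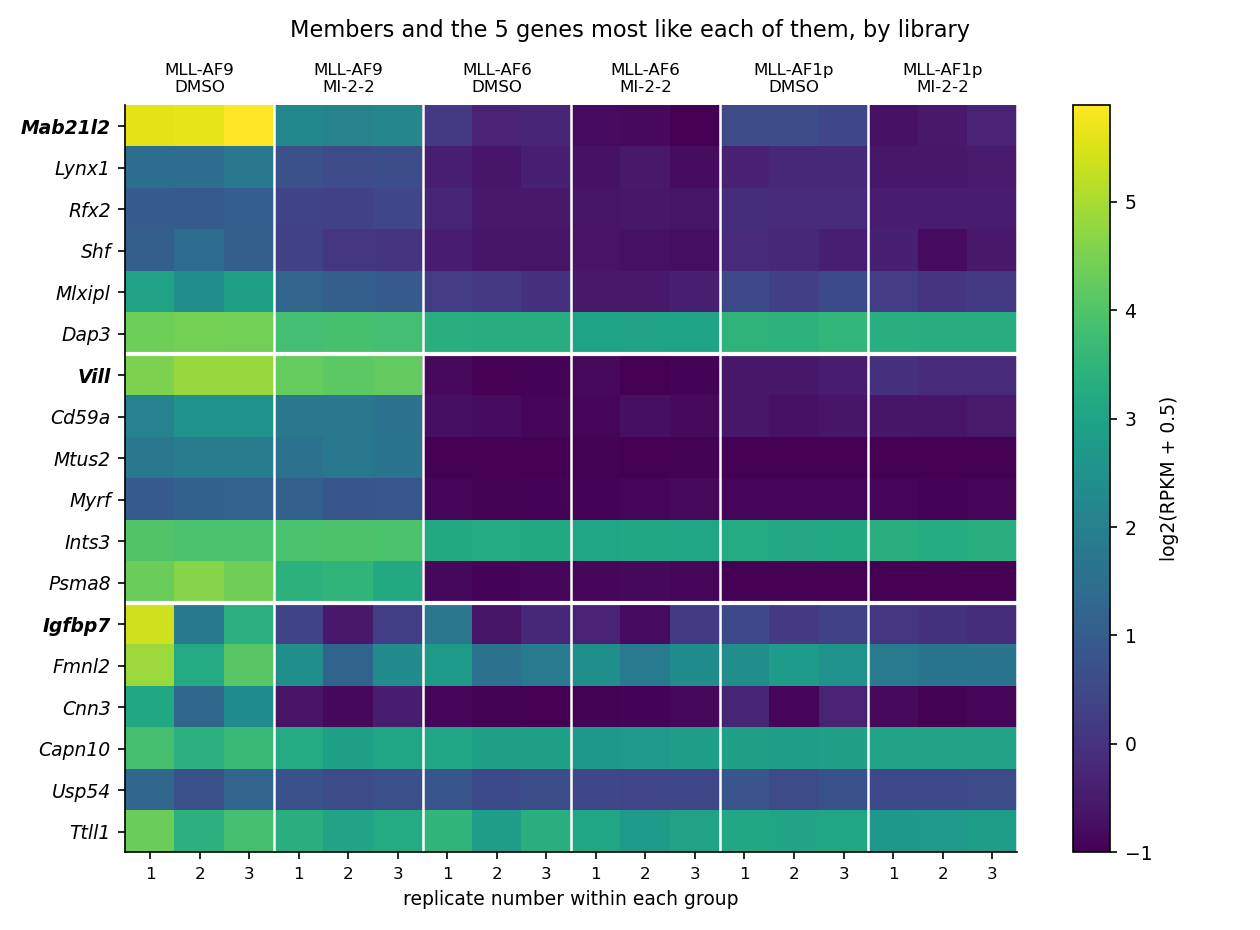
Colour scale of log2(RPKM + 0.5) in the 18 libraries for each member (bold) and the 5 genes with the highest Pearson's r with it. Each row of the Vill block is brighter in the 6 MLL-AF9 libraries than elsewhere, each row of the Mab21l2 block is brightest in the 3 MLL-AF9 DMSO libraries, and the Igfbp7 block varies among those 3, with Igfbp7 at 41.3, 2.95 and 9.78 RPKM.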

How the data were processed

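The 18 polyA RNA libraries came from a TruSeq kit, which leaves the strand unmarked, per the labels' protocols. What the authors deposited is RPKM per gene and library, and the file headers also give each gene's length. Build mm9, edgeR, HTSeq, Bowtie2 2.0.0.7 and CASAVA 1.8.2 are listed, with no role, in the submitters' processing notes. RPKM times length, divided by the value of 1 read in that library (found from its smallest values above 0), was whole for 100% of values within a tolerance of 0.05, and from these came the reads and depths printed. Reads not counted to a listed gene were not used here.

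Groups came from the labels and no library was left out. Genes reaching 1 RPKM in 3 or more libraries were tested on log2(RPKM + 0.5) with limma 3.58.1 (R 4.3.3), in 1 fit of 6 group means with a trended prior, adjusted by Benjamini-Hochberg and called at an adjusted p under 0.05. The fit was also run on simulated reads with the same scatter setting for every gene and unlinked replicates. In the real libraries the scatter differed by gene and same-numbered libraries deviated together in part. That run therefore cannot speak for the p-values given here. Differences involving the DMSO libraries are given for the 3 members without a test. Families, neighbours (2 on each side), the 5 most alike genes per member and the 6 genes with the largest ratio were named by rule, with up to 6 genes per family list by mean RPKM. The members and lists were chosen with earlier results of these data known.

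Alternatives were a pseudocount of 0.1, no filter, median centring, quantile normalization, voom in limma on the recovered reads, a constant prior, a replicate block, the treated libraries alone and each library left out. Leaving out replicate 1 of every group was added after seeing the data, as were the other settings of the 41-gene list. Same-numbered libraries deviated together between treated MLL-AF6 and each other treated construct (r = 0.226, 0.574 and 0.205 with MLL-AF9, and 0.129, 0.283 and 0.107 with MLL-AF1p). With MLL-AF1p each best match had the same number, but MLL-AF9 replicates 1 and 3 matched MLL-AF6 replicates 3 and 1 best. Against its own controls treated MLL-AF6 gave r = 0.493, 0.557 and 0.001. The numbers thus pair the libraries only in part, and the fit with a replicate block changed no member call. Replicates of a group differed by 4.09 to 80.3 times counting noise (chi-square per degree of freedom), so none is a copy.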

Additional observations from a re-analysis of the deposited data

Results flagged for a closer look

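Vill moved in opposite directions with MI-2-2 in different constructs, with all treated libraries below the controls in MLL-AF9 (−0.50 on the log2(RPKM + 0.5) scale) and all above them in MLL-AF1p (0.44), a difference of −0.94 that was not tested. The MLL-AF1p levels were under 1 RPKM.

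The same held for 6 further genes of the lists and neighbours, without a test of the difference. For each, every treated library lay on one side of the controls in one construct and on the other side in another. How common this pattern was over all 11238 genes was not counted, so the 6 cannot be set against a background. Among them, Insr passed with MI-2-2 in no construct, and Cd93, Noa1 and Mll1 did not pass in MLL-AF1p. Igf1r differed by 0.96 between MLL-AF9 and MLL-AF6. Insr differed by 0.43 and Cd93 by 0.90 between MLL-AF9 and MLL-AF1p, and Cd93 by 0.90 between MLL-AF6 and MLL-AF1p. Noa1, beside Igfbp7, differed by −0.91 between MLL-AF9 and MLL-AF1p and by −0.63 between MLL-AF6 and MLL-AF1p. Of the genes of the fusions, Mllt4, the mouse gene of AF6, differed by 1.59 between MLL-AF9 and MLL-AF6 and by 1.77 between MLL-AF9 and MLL-AF1p, and Mll1 by 0.69 and 0.52. Reads of the constructs are not separated from those of these mouse genes.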

How the results depend on the processing

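All 127 alternative counts of called genes and of the 41-gene list stayed within 1.5 times the value reported. The 41-gene list held 38 to 50 genes across its settings and all 3 members in each. Among the members, the differences of Vill and Mab21l2 between MLL-AF9 and each other construct under MI-2-2 kept their direction and passed under every alternative. The fit with a replicate block gave 3.03 and 2.67 for Mab21l2 and 5.13 and 4.32 for Vill (limma adjusted p = 2.45e-10, 1.05e-09, 5.95e-14 and 2.41e-13), raised the count for MLL-AF9 against MLL-AF6 under MI-2-2 from 4847 to 5623 and changed no member call. On the recovered reads voom called 4704 genes there. Of 45 same-numbered pairs of libraries 33 had r over 0.1. The highest were 0.627 and 0.599, for replicates 1 and 2 of MLL-AF9 and MLL-AF6 under DMSO, where replicate 3 had −0.098. Among the comparisons tested, only those of treated MLL-AF6 with another treated construct had every pair over 0.1. Against treated MLL-AF9 the best matches of replicates 1 and 3 crossed, so the numbers are not taken as full pairing.

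The call of Mab21l2 between treated MLL-AF6 and MLL-AF1p cells (−0.36) was lost with no filter (−0.36), median centring (−0.30) and quantile normalization (−0.19), and with single libraries left out ranged from −0.47 to −0.28 (replicate 1 of every group included). Igfbp7 in MLL-AF9 against MLL-AF1p under MI-2-2 changed sign with voom (−0.05), without replicate 1 of every group (−0.09) and with single libraries left out (range −0.13 to 0.34).

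Untested differences between MI-2-2 and DMSO moved by more than the replicate spread where the low values meet the pseudocount. For Mab21l2 they were −3.68, −1.82 and −1.87 in MLL-AF9, MLL-AF6 and MLL-AF1p with a pseudocount of 0.1, −3.71, −3.54 and −2.33 with voom, and −1.23 in MLL-AF1p with quantile normalization. For Vill they were 0.09, −0.08 and 0.33 in MLL-AF6 with median centring, quantile normalization and voom, and 0.88, 0.30 and 1.19 in MLL-AF1p with a pseudocount of 0.1, quantile normalization and voom. For Igfbp7 in MLL-AF1p they were −0.53 and −0.62 with a pseudocount of 0.1 and voom. Of the alternatives for the called family and neighbour genes, 1960 kept their call, 125 lost it and none changed direction. The cause of these changes was not tested, apart from the pseudocount's own effect on low values.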
